A study of Homo sapiens with 6 samples.

Results

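Small nucleolar RNA (snoRNA) genes and the related small Cajal body RNA (scaRNA) genes were followed in BHT101 cells, an established line from an anaplastic thyroid carcinoma, after transfection with a plasmid. The members were chosen by measured values: a gene typed as snoRNA or scaRNA in the deposited table was taken where it reached at least 1 FPKM (fragments per kilobase of gene, scaled to library depth) in at least 3 of the 6 libraries. This rule took 25 of the 134 snoRNA and scaRNA genes in a table of 32896 genes. The libraries came from 3 samples given a control plasmid and 3 given a plasmid for SK4, the calcium-activated potassium channel encoded by KCNN4. All 6 were harvested 48 h after lipid transfection, and the cell line labels and source names give the same line for both groups. The treatment label of control replicate 3 alone names another line number, and it was kept as a control by its title. The series set out to find genes and splicing events downstream of SK4. The overexpression is transient, and whether samples within a group were separate cultures is not stated in the labels, so p-values speak only of the spread between the libraries, part or all of which may be technical.

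The snoRNAs are short nuclear RNAs that guide chemical changes of other RNAs. Box C/D snoRNAs (symbols SNORD) bind fibrillarin and direct 2′-O-methylation, and box H/ACA snoRNAs (symbols SNORA) bind dyskerin and direct pseudouridylation, mostly of ribosomal RNA, while scaRNAs (symbols SCARNA) guide changes of spliceosomal RNAs in Cajal bodies. A few, U3 among them, are needed to cut the ribosomal RNA precursor. In human cells most are released from introns of other genes and trimmed by exonucleases, and the mature forms carry no poly(A) tail. The libraries here were made from RNA captured on mRNA beads and fragmented, so a member's level is that of the fragments that came through such a capture and not the cellular amount of the mature RNA. Whether these fragments came from mature snoRNAs, tailed precursors or unspliced host transcripts cannot be told apart in gene-level values.

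The members comprised 15 of the 38 SNORD genes in the table (39.5%), 7 of the 52 SNORA genes (13.5%), 2 of the 13 SCARNA genes and 1 of the 31 with another symbol. That last gene, listed as ENSG10010138531.1 and paired with ENSG00000206878, carries the family name RF00432 in GENCODE release 29 and has no SNORA or SNORD symbol. Sequences below are of the annotated genes in GENCODE release 29 on GRCh38, 5′ to 3′, in DNA letters, and all 25 member identifiers were found there. SNORD4A (chr17:28722582-28722653 on the plus strand), SNORD12C (chr20:49278940-49279028 on the plus strand) and SNORD99 (chr1:28578749-28578822 on the minus strand) are shown because the comparison between plasmids turned on them. SNORD104 (chr17:64146083-64146152 on the plus strand) is shown as the most abundant member. The capitals mark the first C box (TGATGA) and the last D box (CTGA) that were found.
SNORD4A: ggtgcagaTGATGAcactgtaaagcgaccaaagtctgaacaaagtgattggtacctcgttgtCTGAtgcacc
SNORD12C: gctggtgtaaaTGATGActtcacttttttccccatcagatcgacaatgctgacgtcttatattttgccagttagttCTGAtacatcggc
SNORD99: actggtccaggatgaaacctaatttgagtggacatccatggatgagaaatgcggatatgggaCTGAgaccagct
SNORD104: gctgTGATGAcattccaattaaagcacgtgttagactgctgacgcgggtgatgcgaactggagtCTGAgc

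The D box was present within 20 nt of the 3′ end in 15 of 15 SNORD members. The C box letters were present on the gene's own strand in 14 of 15, SNORD99 being the exception, and on the opposite strand in 0 of 15. In 11 of the 15 the C box lay within 20 nt of the 5′ end. Among the 23 SNORD genes that did not reach the level rule, 14 held the C box letters on their own strand and 23 held the D box near the 3′ end. CTGA is a short motif and occurred on the opposite strand of 6 of the 15 members. These matches describe letters in the annotated sequence and say nothing of function.

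SNORA33 (chr6:132817219-132817348 on the plus strand), the most abundant H/ACA member, SNORA3B (chr11:8685439-8685569 on the plus strand), the SNORA member with the lowest fold change, and the gene without a snoRNA symbol (chr1:228652436-228652560 on the plus strand) are shown with the last ACA in capitals.
SNORA33: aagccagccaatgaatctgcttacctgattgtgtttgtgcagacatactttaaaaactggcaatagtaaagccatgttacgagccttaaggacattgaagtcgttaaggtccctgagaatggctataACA
SNORA3B: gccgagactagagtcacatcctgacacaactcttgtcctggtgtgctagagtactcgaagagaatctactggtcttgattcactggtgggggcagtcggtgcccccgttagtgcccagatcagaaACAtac
ENSG10010138531.1: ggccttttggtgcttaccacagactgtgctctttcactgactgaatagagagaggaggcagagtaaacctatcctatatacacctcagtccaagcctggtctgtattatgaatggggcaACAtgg

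The letters ACA lay within the last 6 nt of 6 of 7 SNORA members, and of 40 of the 44 SNORA genes below the rule that have an annotated sequence. On the opposite strand 0 of 7 members had it there. The H box letters (ANANNA, where N is any base), which lie between the hairpins of this class, was found in the middle 40 nt of 7 of 7 members and there on the opposite strand of 2 of 7. So loose a motif also occurred there on the opposite strand of 22 of the 44 below the rule. The gene without a snoRNA symbol also ends in ACA followed by 3 nt, as SNORA3B does.

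Near-identical copies limit some values, because nothing in the sources used here says how the authors handled fragments that fit more than 1 place. SNORD3A, SNORD3B-1 and SNORD3B-2 are copies of U3 on chromosome 17. The shortest annotated transcripts of SNORD3B-1 and SNORD3B-2 were identical over 217 nt, and SNORD3A shared 216 of the 217. SNORD14A and SNORD14E, copies of U14, shared 72 bases, or 79.1% of the longer sequence. Of the 300 pairs of members, the 3 among the U3 copies were the pairs at 80% identity or more. SNORD14A (chr11:17074654-17074744 on the minus strand) and SNORD14E (chr11:123058077-123058161 on the minus strand) are shown to let the conserved and the differing stretches be compared.
SNORD14A: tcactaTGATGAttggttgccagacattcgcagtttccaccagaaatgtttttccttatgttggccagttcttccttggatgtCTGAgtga
SNORD14E: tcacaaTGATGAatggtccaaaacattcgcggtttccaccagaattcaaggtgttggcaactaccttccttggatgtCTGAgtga

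The cells and the overexpression were checked first. KCNN4 lay at 8.31, 8.26 and 8.52 FPKM with the control plasmid and at 184.14, 147.66 and 169.2 FPKM with SK4 (log2 fold change 4.23, limma adjusted p = 8.83e-07). The epithelial keratin KRT8 lay between 124.1 and 140.0 FPKM and EPCAM between 10.4 and 12.7 FPKM in the 6 libraries. CDH1, from the same epithelial list, was low at 1.59 to 1.97 FPKM. The thyroid markers TG and TSHR were at 0.01 FPKM or below in every library and PAX8 at 0.24 to 0.40 FPKM, so these defining markers of the tissue were close to absent. The leukocyte marker PTPRC was at 0.01 FPKM or below, while CD14 reached 3.32 to 4.43 FPKM. Depth, estimated from the steps of the FPKM values, was 35900000, 38500000 and 29700000 fragments for the 3 control replicates and 36500000, 36800000 and 38300000 for the 3 SK4 replicates.

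The members were low. Their mean levels over the 6 libraries ran from 1.19 FPKM (SCARNA10) to 25.4 FPKM (SNORD104), with a median of 2.87 FPKM for SNORD and 2.40 FPKM for SNORA. All 25 together held 745, 919 and 574 estimated fragments in the 3 control replicates and 828, 775 and 797 in the 3 SK4 replicates, close to 0.002% of each library. A short gene reaches 1 FPKM on few fragments. At the median length of the SNORD genes in the table, 85.5 nt, 1 FPKM stood for 2.54 to 3.29 fragments, and at the SNORA median of 135 nt for 4.01 to 5.20. The same rule in FPKM therefore asked for fewer fragments from a SNORD than from a SNORA gene. With a minimum of 5 fragments on average in place of the rule, 15 SNORD genes (14 of them members) and 7 SNORA genes (all members) passed, and the median levels stayed at 2.87 and 2.40 FPKM.

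The level rule divided genes that differ little. SNORA72 and SCARNA10 passed with third-highest values of 1.23 and 1.27 FPKM. SNORA5C and SNORA66 did not, with 0.98 FPKM each. Of the 109 genes below the rule, 15 had a value above 0 in all 6 libraries and 47 in 1 library only. SNORD13, which acts on small-subunit ribosomal RNA, was below the rule. Of the members, 19 of 25 are shorter than the 150 nt reads, and their gene lengths ran from 70 to 791 nt.

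SNORD104, a C/D snoRNA in an intron of the noncoding host SNHG25, had the highest level. It lay at 23.06, 26.33 and 23.09 FPKM with the control plasmid and at 29.74, 21.73 and 28.28 FPKM with SK4. The groups overlapped, since SK4 replicate 2 was the lowest of the 6 and SK4 replicates 1 and 3 the highest, and the log2 fold change was 0.13 (SE 0.12). With 48 to 76 fragments per library it was 1 of the 3 members above 50 fragments on average.

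SNORD3A, which encodes U3, the RNA of the small-subunit processome, came next. Its values were 11.47, 15.08 and 11.13 FPKM with the control plasmid and 13.29, 13.02 and 13.75 FPKM with SK4. The SK4 values lay within the range of the controls, of which control replicate 2 stood highest (log2 fold change 0.10, SE 0.11). SNORD3B-1 was at 1.95, 1.99 and 1.64 FPKM with the control plasmid and 2.13, 2.33 and 1.79 FPKM with SK4, and SNORD3B-2 at 1.76, 1.25 and 1.70 against 2.18, 1.30 and 1.42 FPKM. Because fragments of the copies cannot be assigned with certainty, the 3 genes were also summed. The sum was 391, 502 and 308 fragments in the control and 461, 438 and 463 in the SK4 libraries, or 11.4 ± 1.41 and 12.2 ± 0.378 fragments per 1000000 of depth (SD, n = 3 each), and the groups overlapped. U3 thus made up 52.5% to 58.1% of the fragments of all members. The FPKM of the U3 genes used annotated lengths of 699, 758 and 791 nt, against 217 nt for the shortest transcript, so their FPKM would be higher over the mature RNA alone.

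**Figure D1:**
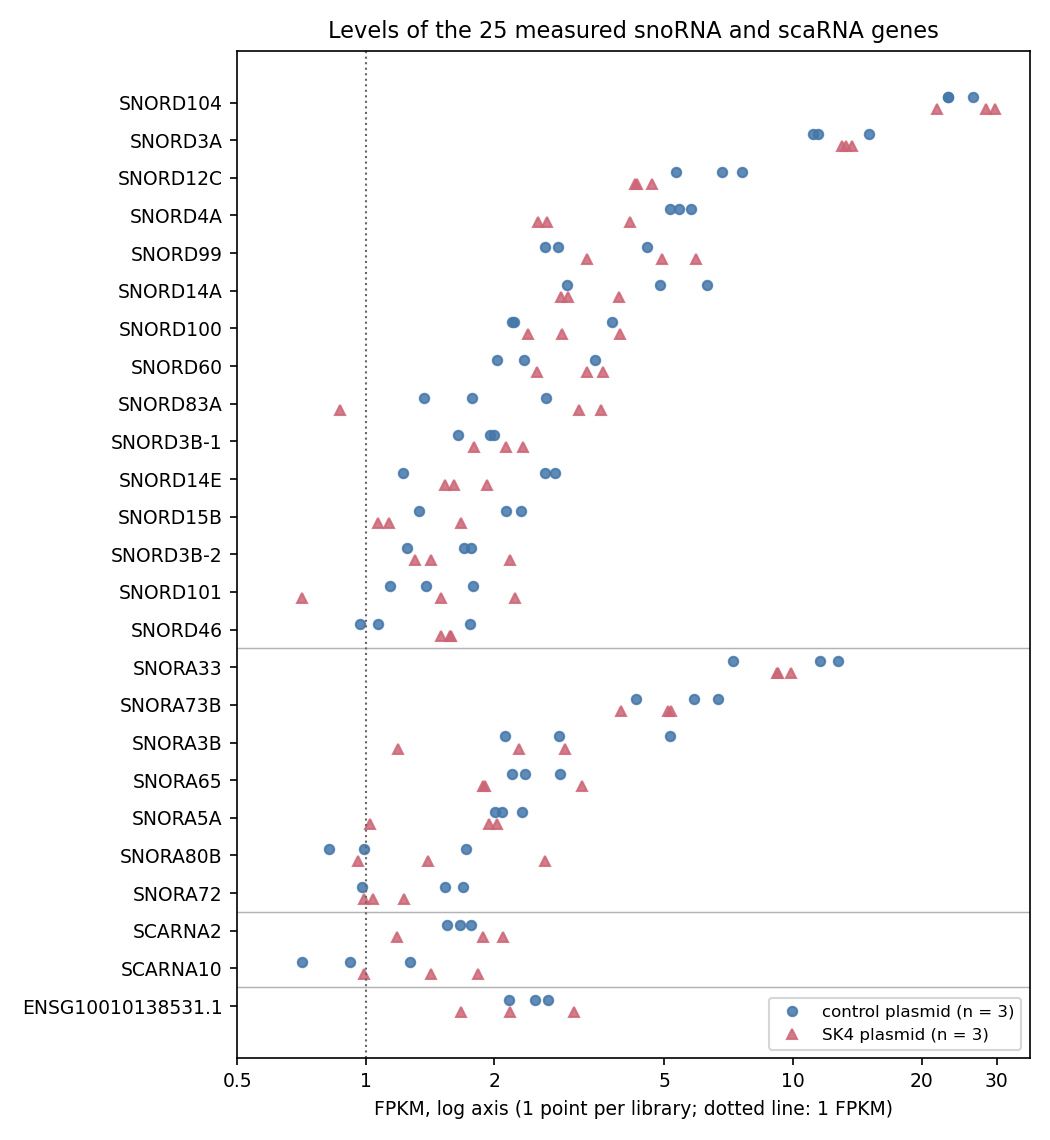
FPKM (log axis) of the 25 members in the 3 control (circles) and 3 SK4 libraries (triangles), grouped as SNORD, SNORA, SCARNA and the gene with another symbol, with the 1 FPKM rule as a dotted line. SNORD104 reaches 21.73 to 29.74 FPKM, most members lie under 5 FPKM, and the 2 groups of points are apart for SNORD4A and SNORD12C alone.

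SNORA33, in an intron of RPS12, led the H/ACA members. It held 11.56, 12.78 and 7.25 FPKM with the control plasmid and 9.90, 9.19 and 9.22 FPKM with SK4. The SK4 values fell inside the control range, whose lowest value was control replicate 3. SNORA73B, an H/ACA RNA needed for maturation of small-subunit ribosomal RNA, was at 6.69, 5.85 and 4.29 FPKM with the control plasmid and 5.10, 5.19 and 3.96 FPKM with SK4. The groups overlapped, with control replicate 1 the highest and SK4 replicate 3 the lowest (log2 fold change -0.21, SE 0.16). SNORA3B spread most among the 4 most abundant SNORA genes, from 1.19 FPKM in SK4 replicate 3 to 5.15 FPKM in control replicate 2.

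The SCARNA members guide changes of spliceosomal RNAs. SCARNA2, which guides methylation of U2, was at 1.66, 1.55 and 1.76 FPKM with the control plasmid and 2.09, 1.88 and 1.18 FPKM with SK4. SK4 replicate 3 was its lowest library and SK4 replicate 1 its highest, and the fold change was close to 0 (log2 0.016, SE 0.16). SCARNA10, which guides changes of U5, was at 1.27, 0.71 and 0.92 FPKM with the control plasmid and 1.83, 0.99 and 1.42 FPKM with SK4. These groups overlapped in the values of control replicate 1 and SK4 replicate 2 (log2 fold change 0.38, SE 0.20). The table types SCARNA10 as a snoRNA, and 1 member, SCARNA2, as a scaRNA. The gene without a snoRNA symbol lay at 2.67, 2.49 and 2.16 FPKM with the control plasmid and 3.07, 2.17 and 1.67 FPKM with SK4, again with overlap.

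SNORD and SNORA members stood at like levels. The median over the SNORD members was 2.62, 2.81 and 2.31 FPKM in control replicates 1 to 3 and 2.66, 3.15 and 2.51 FPKM in SK4 replicates 1 to 3. The SNORA median was 2.12, 2.32 and 2.83 FPKM with the control plasmid and 2.62, 2.03 and 1.94 FPKM with SK4. On the log2 scale SNORD minus SNORA was 0.25, 0.23 and -0.24 in the control and 0.018, 0.53 and 0.30 in the SK4 libraries. The SNORD median was the higher in 5 of 6 libraries, control replicate 3 being the exception, and the difference spread as widely within a group as between the groups. The level rule took part in setting these medians, so no test was made.

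Between plasmids, no member was called higher or lower. The test was limma on log2(FPKM + 0.5), fitted to the 11139 genes that met the same level rule, with Benjamini-Hochberg adjustment over all of them and a threshold of 0.05. It called 0 of 25 members (limma adjusted p = 0.99997 for every one), against a background of 0.00898% of tested genes, which is KCNN4 alone. At an unadjusted limma p below 0.05 there were 2 of 25 members, SNORD4A and SNORD12C, both lower in the SK4 libraries, where 0.593% of tested genes were lower at that level. The 3 SK4 values lay below all 3 control values in the same 2 members, against 1.81% of tested genes, and above them in 0 members, against 3.53%. With 3 against 3 libraries an exact two-sided permutation test cannot go below p = 0.1 for a single gene, which it reached for SNORD4A and SNORD12C. In bulk libraries, fewer cells with an RNA and less RNA per cell cannot be told apart. Short genes outside the members also reached low p more often than the rest: of 157 other tested genes under 300 nt, 17 (10.8%) had an unadjusted limma p below 0.05, against 8% of members and 1.65% of all tested genes. In either direction, the groups were apart in 9.55% of those 157 genes, in 8% of members and in 5.34% of all tested genes. Both shares of members were therefore near those of other short genes.

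SNORD4A, hosted by the ribosomal protein gene RPL23A, had the smallest unadjusted p among members. It lay at 5.41, 5.77 and 5.14 FPKM with the control plasmid and at 2.66, 4.15 and 2.53 FPKM with SK4. The groups were apart, and SK4 replicate 2 came nearest to the controls. The log2 fold change was -0.74 (SE 0.16, 95% confidence interval -1.12 to -0.37, limma adjusted p = 0.99997). These values rest on 14, 16 and 11 fragments in the control and 7, 11 and 7 in the SK4 libraries. From the fragments alone, the ratio of SK4 to control was 0.569, with an exact 95% interval of 0.331 to 0.958 that covers counting error only. The spread over the control libraries was 5.81%, below the 27.3% that counting such numbers gives on average (28.9% against 34.6% with SK4). With limma's prior variance set by the fragments per gene, the SE rose to 0.23. The unadjusted limma p was then 0.012, against 0.0021 in the main fit. Without both control replicate 3 and SK4 replicate 2, the libraries with the fewest genes at 1 FPKM (10735 and 10855, against 11069 to 11147 in the other 4), SNORD4A was called lower (log2 fold change -0.98, limma adjusted p = 0.00326). The SE of 0.068 in that fit rests largely on 2 libraries per group lying close together, on 14 and 16 against 7 and 7 fragments. The fit used FPKM values alone, without the number of fragments behind them. Control replicate 3 is also the library with the differing line label. In that fit 2 libraries stood for each group and limma called 4 of the 11139 tested genes (0.0359%), 2 of them members, while 565 genes had an unadjusted p below 0.05, against 184 with all libraries, and over all settings tried its adjusted p ran from 0.00326 to 0.99998. SNORD4A overlaps the antisense gene AC010761.1, and the strand setting of the authors' counting is not given in the sources used here, so reads from the pair cannot be told apart.

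SNORD12C, in an intron of the noncoding host ZFAS1, was the other. Its values were 5.32, 7.58 and 6.81 FPKM with the control plasmid and 4.31, 4.27 and 4.68 FPKM with SK4. All SK4 libraries were lower, control replicate 1 lying nearest to them. The log2 fold change was -0.51 (SE 0.12, interval -0.79 to -0.23, limma adjusted p = 0.99997). The fragments numbered 17, 26 and 18 in the control and 14, 14 and 16 in the SK4 libraries, which gives a ratio of 0.673 with an exact 95% interval of 0.446 to 1.01. This interval includes 1. Its spread over the SK4 libraries was 5.11%, below the 26.1% that counting such numbers of fragments gives on average.

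SNORD99, hosted by the noncoding gene SNHG12, had the highest fold change over all 6 libraries. It lay at 2.63, 2.81 and 4.55 FPKM with the control plasmid and at 5.92, 3.30 and 4.93 FPKM with SK4. The groups overlapped, because control replicate 3 was above SK4 replicate 2. The log2 fold change was 0.45 (SE 0.24, limma adjusted p = 0.99997). On 7, 8 and 10 fragments in the control and 16, 9 and 14 in the SK4 libraries the ratio was 1.46, with an exact 95% interval of 0.859 to 2.51. Those 2 libraries are the ones left out in the smaller fit, in which SNORD99 was called higher (log2 fold change 0.88, limma adjusted p = 0.0433). The SE of 0.090 there again rests largely on 2 close libraries per group, on 7 and 8 against 16 and 14 fragments. The log2 fold change fell to 0.28 without SK4 replicate 1 and to 0.32 without control replicate 1, where SNORD83A (0.70) and SCARNA10 (0.52) were the highest. SNORA80B was the highest without control replicate 2 (0.55, against 0.36 for SNORD99) and without SK4 replicate 3 (0.57 against 0.40). SNORD99 stayed the highest without control replicate 3 or without SK4 replicate 2 (0.66 each). The adjusted p of SNORD99 over all settings tried ran from 0.0433 to 0.99998.

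**Figure D2:**
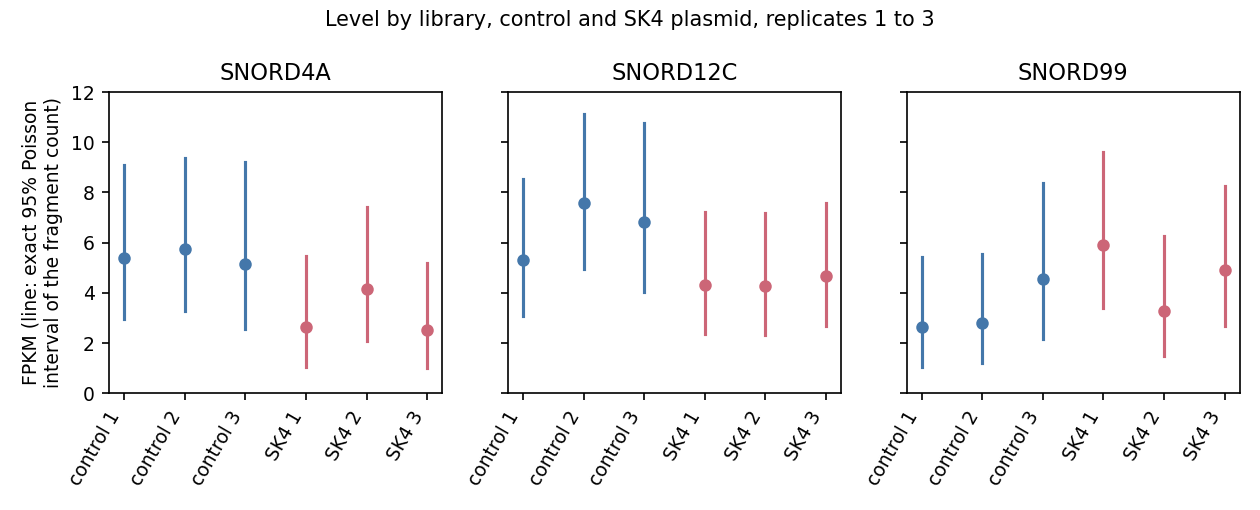
FPKM of SNORD4A, SNORD12C and SNORD99 in each library (points), with the exact 95% Poisson interval of the fragment count behind each value (lines). The intervals overlap between groups for each of the 3 genes, and for SNORD4A they run from 1.02 FPKM to 9.37 FPKM over the 6 libraries.

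The other members moved in both directions. Of the 25, 12 had a positive and 13 a negative log2 fold change, against 57.9% positive among all tested genes. SNORD had 9 positive and 6 negative values with a median of 0.098, and SNORA 1 positive and 6 negative with a median of -0.21, beside a median of 0.011 over all tested genes. The SNORD median turned to -0.0077 without SK4 replicate 2 and was 0.039, 0.046 and 0.052 without SK4 replicate 1, control replicate 1 and control replicate 3. The SNORA median was -0.12 without control replicate 1 and -0.35 without control replicate 3, and stayed negative with any 1 library left out. The positive SNORA gene was SNORA80B (0.33, SE 0.30), whose value fell to 0.027 without SK4 replicate 1, its highest library, and to 0.17 without control replicate 1, its lowest. These counts describe genes of which limma called 0, with 2 at an unadjusted p below 0.05, and the difference between the classes was not tested. The median size of the fold change was 0.24 in members, 0.17 in the other genes under 300 nt and 0.039 in all tested genes.

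Among the negative values, SNORD15B, which guides methylation of large-subunit ribosomal RNA, was at 1.33, 2.13 and 2.31 FPKM with the control plasmid and 1.13, 1.67 and 1.07 FPKM with SK4. Its groups overlapped through control replicate 1 (log2 fold change -0.43, SE 0.19, limma adjusted p = 0.99997). SNORD14A was at 4.89, 6.28 and 2.96 FPKM with the control plasmid and 3.91, 2.98 and 2.86 FPKM with SK4, and its copy SNORD14E at 2.62, 1.22 and 2.77 against 1.61, 1.92 and 1.53 FPKM. Both copies of U14, which takes part in small-subunit processing, overlapped between groups. In SNORD14A control replicate 3 was low, while in SNORD14E it was the highest library. SNORA5A was at 2.08, 2.32 and 2.01 FPKM with the control plasmid and 1.02, 2.03 and 1.94 FPKM with SK4, its low value being SK4 replicate 1 with 5 fragments. SNORA3B had 10, 26 and 11 fragments in the control and 14, 11 and 6 in the SK4 libraries. Its ratio of 0.615 had an exact 95% interval of 0.378 to 0.989, although the groups overlapped and its spread between control replicates (47.1%) was above the counting error (25.7%). Its log2 fold change of -0.54 became -0.23 without control replicate 2 and -0.25 without SK4 replicate 3.

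Among the positive values, SNORD46 was at 1.07, 1.75 and 0.97 FPKM with the control plasmid and 1.58, 1.57 and 1.50 FPKM with SK4. SNORD60 was at 2.35, 3.44 and 2.03 FPKM with the control plasmid and 3.30, 3.60 and 2.51 FPKM with SK4. In both, control replicate 2 overlapped the SK4 values and the log2 fold change was 0.24 (SE 0.16 and 0.18). SNORD100 was at 2.20, 3.76 and 2.22 FPKM with the control plasmid and 2.88, 3.93 and 2.40 FPKM with SK4. Replicate 2 was its highest library in each group. SNORD83A was the least repeatable, with 0.87 FPKM in SK4 replicate 1 and 3.56 FPKM in SK4 replicate 3, on 3 and 13 fragments. The fewest fragments were those of SNORD101, 2 to 6 per library. The remaining low members were SNORA65 (1.88 to 3.21 FPKM), SNORA72 (0.98 to 1.69 FPKM) and SNORA80B (0.82 to 2.62 FPKM), each with overlapping groups. SNORA72 lies opposite the gene AP003352.1, so the limit on antisense pairs holds for it too.

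**Figure D3:**
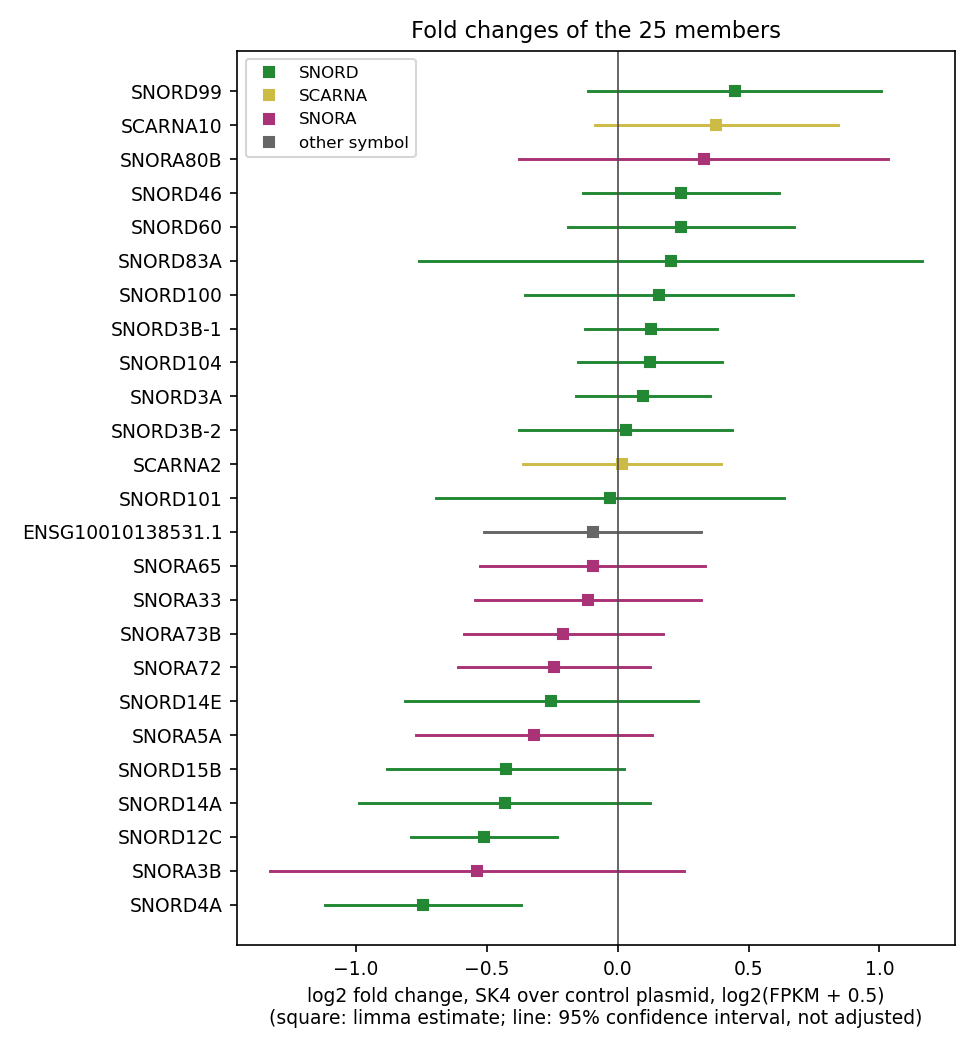
Log2 fold change of SK4 over control for the 25 members (squares, limma estimates on log2(FPKM + 0.5)) with 95% confidence intervals that are not adjusted for the number of genes (lines), coloured by class. The values run from -0.74 (SNORD4A) to 0.45 (SNORD99), and the intervals of SNORD4A and SNORD12C leave out 0.

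The width of these limma intervals bears on what the libraries could show. For 20 of 25 members the 95% interval kept within 2-fold up or down, and for 8 of 25 within 1.5-fold. Among all tested genes the shares were 99.6% and 96.8%. Among the other genes under 300 nt they were 82.2% and 43.9%. For the other 17 members a 1.5-fold difference in at least 1 direction lay within the interval, and the absence of calls does not show that levels were equal. For members with few fragments the limma interval can be narrower than counting error alone allows. SNORD46 had a limma interval of -0.13 to 0.62 in log2, but a fragment ratio interval of 0.564 to 2.61, which passes 2-fold. For SNORD3A, with many fragments, the ratio interval was the narrower (0.961 to 1.15). A limma interval within 2-fold thus does not exclude a 2-fold difference for every such member.

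Replicate spread was of the size that counting gives. The median coefficient of variation over the 3 replicates was 26.6% in the control and 25.6% in the SK4 libraries, beside 30.2% and 30.6% from counting the estimated fragments. Of the 50 values, 1 per member and group, 32 were at or below the counting error and 2 were above 2 times it. Those 2 were SNORD3A in the control libraries (17.4% against 5.76%) and SNORD3B-2 in the SK4 libraries (29.2% against 14.4%), both copies of U3. With an average of 328 fragments per library, SNORD3A is the member where counting error was smallest. For 10 members the average was under 10 fragments. The fragment ratio between groups had an interval that held 1 in 23 of 25 members, the exceptions being SNORD4A and SNORA3B. Reads carry no molecular identifiers, so counting error is the lower limit of the error.

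**Figure D4:**
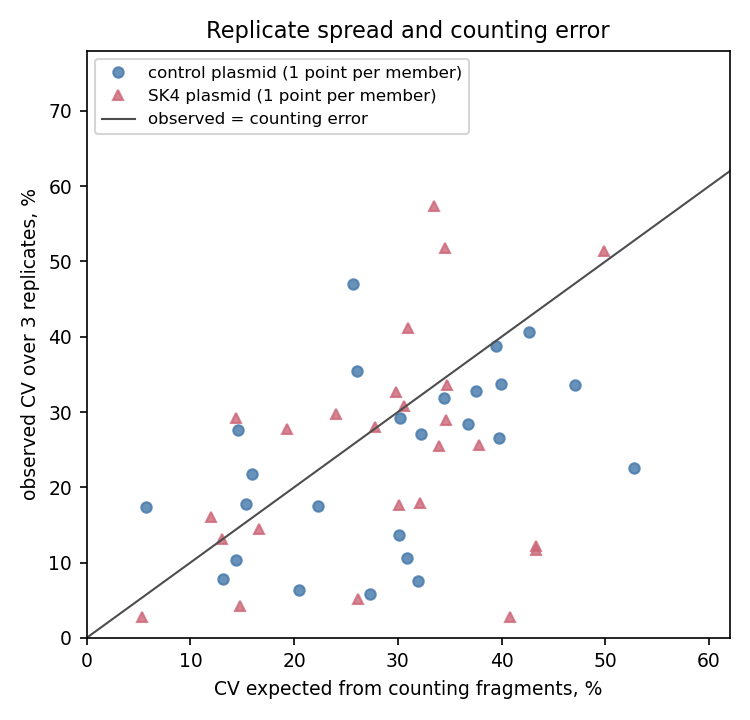
Observed coefficient of variation (CV) over 3 replicates against the CV expected from the estimated number of fragments, in percent, with 1 point per member for the control (circles) and the SK4 libraries (triangles) and the line of equality. Of the 50 points 32 lie on or below the line, and the point at the far left and above the line is SNORD3A in the control libraries at 17.4% against 5.76%.

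No single library was the highest or the lowest for most members. The highest value of a member fell in control replicate 2 for 8 members and in SK4 replicate 1 for 7, and the lowest in SK4 replicate 3 for 8 members and control replicate 3 for 5. Control replicate 2 was the deepest library and control replicate 3 the shallowest, and FPKM already divides by depth. Between 22 and 24 members reached 1 FPKM in each library. The number of snoRNA and scaRNA genes with any value above 0 was 84, 81 and 63 over the 3 control replicates and 72, 79 and 71 over the 3 SK4 replicates, lowest in the shallowest library.

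Most members lie inside other genes. In GENCODE release 29, 20 of 25 sat in an intron of every transcript of a host that runs on the same strand, in 18 distinct hosts. The host was protein-coding for 16 members, a ribosomal protein gene for 11 of them, and noncoding for 4 (SNHG25, ZFAS1, SNHG19 and SNHG12). SNORA73B also lies within another gene, SNHG3, but was counted under RCC1 by mean FPKM, so SNHG3 is not among the 18 hosts. Which of these 2 genes its fragments came from was not tested. The 3 U3 genes and the gene without a snoRNA symbol had no host, and SCARNA2 lay whole within an exon of AL356488.2. RPS12 alone holds SNORD100, SNORD101 and SNORA33, and all 3 of its annotated snoRNAs were members. Their levels differed within that single host, at 2.90, 1.46 and 9.98 FPKM.

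Members of both classes lay nearer the downstream than the upstream exon by their medians. The end of a SNORD member lay a median of 91 nt upstream of the next exon (68 to 1081 nt, 12 genes), and 7 of the 12 lay 50 to 100 nt away. For SNORA members the median was 108 nt (67 to 1449 nt, 7 genes), and 3 of the 7 lay in that window. The upstream exon lay a median of 194 nt away for SNORD and 398 nt for SNORA, in introns with a median length of 396 and 669 nt. SNORD4A, SNORD12C and SNORD99 were at 69, 75 and 68 nt from the downstream exon, within introns of 1461, 365 and 329 nt.

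Member and host levels showed little relation by rank. Host means ran from 16.8 FPKM (SNHG25) to 1988 FPKM (RPS12), and Spearman's rho between member and host level was -0.068 over the 20 intronic members, which share libraries, and 3 of which share a host. The host exceeded its member by a median of 102 times. SNORD104 was the exception, since SNHG25 had 0.664 times its level, while RPS12 had 1365 times that of SNORD101. Both are per length and the member's value comes from an intron of the host.

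**Figure D5:**
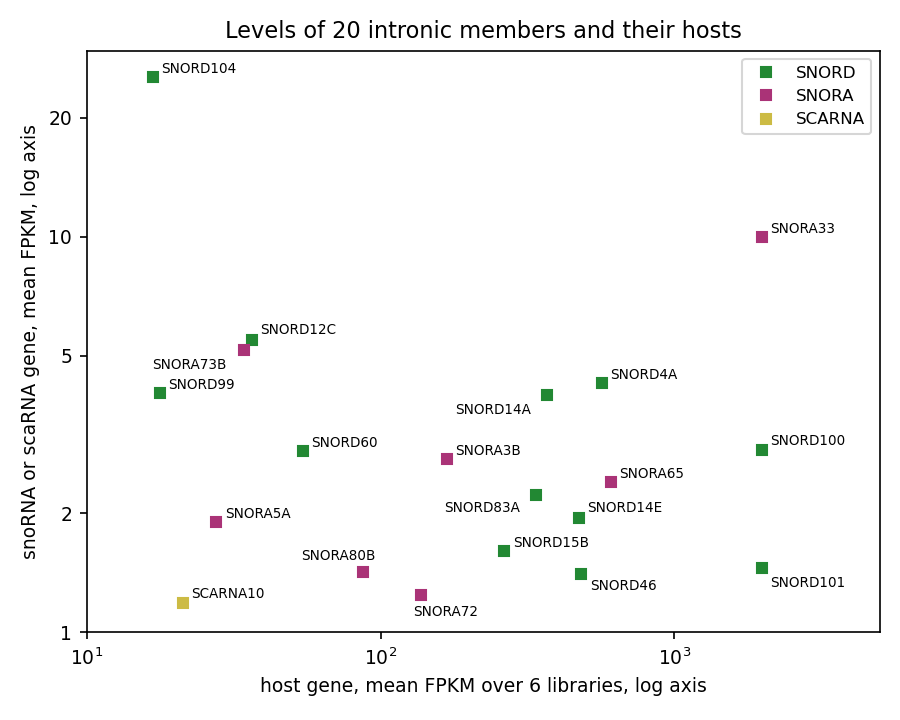
Mean FPKM over 6 libraries of 20 intronic members (vertical, log axis) against that of their host genes (horizontal, log axis), coloured by class. Hosts span 16.8 to 1988 FPKM while most members stay between 1.19 and 5.50 FPKM, and SNORD104 lies above its host.

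No host was called between plasmids. Limma called 0 of the 18 hosts, and 0 had an unadjusted p below 0.05, with log2 fold changes from -0.058 (RCC1) to 0.14 (SNHG25). In RPL3, the host of SNORD83A, every SK4 value lay below every control value, as in 1.81% of tested genes. It lay at 337.37 to 344.94 FPKM with the control plasmid and 329.35 to 335.99 FPKM with SK4. Its log2 fold change (-0.041) was opposite in sign to that of SNORD83A (0.20). RPL23A, the host of SNORD4A and a large-subunit ribosomal protein, was at 572.8 ± 37.4 FPKM with the control plasmid and 561.8 ± 13.8 FPKM with SK4 (SD, n = 3 each). ZFAS1, the host of SNORD12C, was at 35.9 ± 2.55 and 37.1 ± 1.24 FPKM, its log2 fold change (0.049) being opposite in sign to that of the snoRNA. SNHG12, the host of SNORD99, was at 17.5 ± 1.32 and 18.1 ± 1.44 FPKM. Member and host fold changes had the same sign in 12 of 20 cases, with a Spearman's rho of 0.032, given as a description. Whether SNORD4A and SNORD12C changed relative to their hosts was not tested.

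None of the genes for proteins that bind, assemble and trim snoRNAs was called. Of 28 listed genes 26 were tested, and limma called 0, with 0 at an unadjusted p below 0.05. Their log2 fold changes ran from -0.085 (PARN, a poly(A) ribonuclease) to 0.14 (RPAP3, an assembly co-chaperone) around a median of -0.0050, with 11 of 26 positive. FBL, the methyltransferase of C/D particles, was at 150.7 ± 4.33 FPKM with the control plasmid and 147.0 ± 2.64 FPKM with SK4, and the core protein NOP58 at 18.3 ± 3.71 and 19.9 ± 2.72 FPKM. DKC1, the pseudouridine synthase of H/ACA particles, was at 64.3 ± 6.95 and 64.7 ± 4.26 FPKM (SD, n = 3 each). NOP58 and DKC1 were lowest in control replicate 3 (14.07 and 56.24 FPKM) and SK4 replicate 2 was the lowest of its group for both (16.84 and 59.99 FPKM). TENT4B, a poly(A) polymerase that marks RNAs for trimming, and NOPCHAP1, listed as C12orf45, did not meet the level rule.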

How the data were processed

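RNA-seq was analysed from 1 deposited table of FPKM values for 6 libraries of BHT101 cells, grouped by sample titles; the treatment label of control replicate 3 names another line number than its other labels. Per the labels' protocols, mRNA was captured on beads, ligated products of 300 to 500 bp were selected, and 150 nt reads kept the strand. HISAT2 and GRCh38 stand in the submitters' processing notes; their versions are, like the counting tool, not given in the sources used here. FPKM was rounded to 2 decimals by the authors.

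Depth was estimated from 561 single-exon genes under 160 nt, short members among them. It was the depth at which the largest share of values of up to 5 fragments came out whole, within 0.1. That share was 99.4% to 99.5%, and because the estimate maximised it, it is not a separate check. FPKM times length times depth gave fragments. Limma 3.58.1 (R 4.3.3) used log2(FPKM + 0.5), which understates changes of low genes, a trended robust prior and group as the only term, and was tested on simulated data. Fragment ratios have exact Clopper-Pearson-based intervals (SciPy 1.17.1), and sequences were aligned with Biopython 1.88. The host was the gene holding the member on its strand, and where several did, the one with the highest mean FPKM. Hosts, lengths and sequences came from GENCODE release 29, which may differ from the authors' annotation; 31742 of 32896 identifiers matched.

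Members, lists and the rule for named genes (the 8 most abundant SNORD and SNORA, up to 4 SCARNA, the 5 smallest p in each direction, any called, those beside the threshold, and RNAs of ribosomal RNA processing) were chosen with earlier results of these data known; remaining members are named to account for all 25. The same replicate numbers did not pair the libraries: their deviations from the group means correlated at 0.31, -0.41 and -0.15. The highest correlation, 0.53, was between control replicate 3 and SK4 replicate 2, the libraries left out together in the smaller fit. Its cause was not tested. Alternatives covered the pseudocount, filter, scaling, prior variance, library weights, threshold and libraries left out.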

Additional observations from a re-analysis of the deposited data

How the results depend on the processing

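Direction and calls held in most settings. With 1 library left out at a time, no member was called and 136 of 150 fold changes kept their sign. The 14 changes of sign were in 8 members whose log2 fold changes ran from -0.11 to 0.20 (SCARNA2), -0.15 to 0.19 (SNORD3B-2, the highest without both control replicate 3 and SK4 replicate 2), -0.35 to 0.039 (SNORA33), -0.30 to 0.29 (SNORD101), -0.31 to 0.013 (SNORA65), -0.084 to 0.70 (SNORD83A), -0.0093 to 0.38 (SNORD100) and -0.28 to 0.074 (ENSG10010138531.1). The class medians ran from -0.0077 to 0.096 (SNORD) and from -0.35 to -0.12 (SNORA). In the other settings 258 of 269 values kept sign and side of the threshold. Many of these could not change sign: a different filter, prior variance or replicate term leaves each fold change as in the main fit. For those settings only the calls were open to change. Library weights turned SCARNA2 (-0.16), SNORA65 (0.21), SNORD3B-1 (-0.024) and SNORD100 (-0.060), and the SNORD median became -0.024. Without both control replicate 3 and SK4 replicate 2, SCARNA2 (-0.013), SNORA65 (0.10), SNORD83A (-0.039), SNORD3B-1 (-0.0093) and SNORD100 (-0.12) turned, the SNORD median was -0.039, and 2 members were called, SNORD99 (0.88) and SNORD4A (-0.98), of 4 genes called among all tested; the cause was not tested. The sign was the same in every setting for 16 of 25 members. SNORD4A had a limma adjusted p of 0.0695 with library weights and 0.0788 without SK4 replicate 2. The unadjusted limma p of SNORD4A and SNORD12C stayed below 0.05 in every setting tried, for SNORD12C only narrowly. It rose to 0.012 for SNORD4A with the prior variance by fragments per gene. For SNORD12C it rose to 0.0499 without both control replicate 3 and SK4 replicate 2.

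With the replicate number as a term (replicate block) limma called 0 members, and 133 of all tested genes had an unadjusted p below 0.05, against 184 without it. With every gene of the table tested, 753 genes did, of 32896, and with library weights 905; each of these fits called 1 gene. The few fragments per member limit every value above.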
